A study of Homo sapiens with 24 samples.

Results

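The 45 genes described here encode nucleolar proteins, subunits and factors of RNA polymerase I, and assembly factors of both ribosomal subunits. They were chosen by symbol from the 27311 symbols of a count table, with earlier results of these data known, and all 45 had a row in it. The cells were K562, a human erythroleukemia line in suspension culture that carries on part of the erythroid program. In each transfection, 200000 cells received 1 siRNA and were collected after 48 hours. There were 6 groups of 4 libraries. The knockdown groups received siGATA1-1 at 25 nM or siGATA1-2 at 6.25 nM, both aimed at GATA1, a zinc finger factor needed for red cell development. The control groups received the non-targeting siRNAs siNC-1 or siNC-2, each at 25 nM and at 6.25 nM. The dose differed between the GATA1 siRNAs, and a difference between them in effect cannot be told apart from that of dose.

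Ribosome biogenesis begins in the nucleolus, where RNA polymerase I transcribes a long precursor of the ribosomal RNAs. Box C/D and box H/ACA particles, built from small nucleolar RNAs and a few core proteins, modify that precursor by methylation and pseudouridylation. The small subunit processome and a series of large subunit precursors then cut, fold and export it with the ribosomal proteins. In erythroid precursors the pathway is highly active early and declines as the cells mature, and inherited defects of ribosome production often appear first as anemia. The E-box, the DNA word bound by MYC and related factors, is common near the starts of ribosome biogenesis genes.

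Libraries held 88290 to 473098 counts, and the siGATA1-2 libraries were among the shallower ones, with 102225 to 226888 counts against 135533 to 293901 in the controls at 6.25 nM. GATA1 measured 289 ± 31.9 CPM (SD, n = 4) with siGATA1-1 against 569 ± 101 in the 8 controls of its dose, and 244 ± 71.4 with siGATA1-2 against 543 ± 47.2. These falls were 0.97 and 1.19 on the log2 scale (edgeR adjusted p = 3.04e-05 and 5.53e-07), and no knockdown library reached the lowest control. CPM are counts scaled to 1000000 counts in tested genes. The 11 K562 markers were all detected, BCR at no more than 17.8 CPM in any library, and their summed level was 13684 to 19445 CPM in the knockdown libraries against 19616 to 30785 CPM in the controls. T cell markers summed to 204 to 622 CPM, nearly all from CD3D, with CD2 and CD8A at 0, and the knockdown libraries (309.7 to 513 CPM) lay inside the control range. B cell markers summed to at most 41.3 CPM in any library. Fibroblast and epithelial markers, mainly EPCAM with KRT14 at 0, summed to 62.5 to 134 CPM with siGATA1-2 against 133 to 254.8 CPM in its controls, and to 79.7 to 113 CPM with siGATA1-1 against 44.8 to 142 CPM. The part of these marker levels in the results on the members was not tested. In bulk libraries, fewer cells of a type and less RNA per cell cannot be told apart.

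Sequences around the members' transcription starts were read from RefSeq windows on build GRCh38.p14, covering 250 bases before and 50 bases after each start. The counts were made on hg19, so these coordinates do not refer to the alignments. Windows were found for 38 of the 45 members, and 12 of these had more than 1 window, which gave 50 windows. The E-box CACGTG, the same on both strands, occurred in the windows of 18 of the 38 members (47.4%). It occurred in 741 of the 5391 tested genes with a window (13.7%) and in 2396 of all 27305 genes with a window (8.77%). Among the other ribosome biogenesis genes described below, it occurred in 32 of the 113 with a window (28.3%). Counted by window, the shares were 38.0% of the members' windows and 10.1% of those of the tested genes. The words AGATAA and TGATAA, forms of the GATA factor motif searched on both strands, were in the windows of 2 of the 38 members, GAR1 and PPAN (5.26%). The shares were 5.31% of the other ribosome biogenesis genes, 10.9% of tested genes and 19.4% of all genes. CCAAT, the word bound by NF-Y, searched on both strands, was in 44.7% of members and 44.6% of tested genes. None of these words contains another. A match describes the letters only.

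In 16 members an E-box lay within 50 bases of a start, and in 13 of them it lay after the start. The following 30-base stretches are shown because they come from the 4 members with such a site that are described in full below (FBL, DDX21, GAR1 and EBNA1BP2), from the 2 members with such a site and the most negative estimates (NOP14 and PNO1), and from the 2 whose site began closest after the start (WDR43 and UTP18). All run 5′ to 3′ on the strand of the gene, with the E-box in capitals.
FBL: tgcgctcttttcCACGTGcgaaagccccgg
DDX21: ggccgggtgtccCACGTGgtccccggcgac
GAR1: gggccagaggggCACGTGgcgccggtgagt
EBNA1BP2: tggcgctggagcgattcggtggCACGTGga
NOP14: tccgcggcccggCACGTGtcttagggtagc
PNO1: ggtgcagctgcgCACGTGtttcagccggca
WDR43: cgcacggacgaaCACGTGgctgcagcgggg
UTP18: gcagcgaggttcCACGTGagcgcctgcgtt
The FBL stretch is chr19:39846356-39846385 on the minus strand, with its E-box beginning at base 7, where the annotated start is base 1. The DDX21 stretch is chr10:68956604-68956633 on the plus strand and begins its E-box 31 bases before the start of the second DDX21 window. The GAR1 stretch is chr4:109815781-109815810 on the plus strand (base 32), and the EBNA1BP2 stretch is chr1:43172241-43172270 on the minus strand (base 43). The NOP14 stretch is chr4:2963374-2963403 on the minus strand (base 16), and the PNO1 stretch is chr2:68157885-68157914 on the plus strand (base 10). The WDR43 stretch is chr2:28894658-28894687 (base 4) and the UTP18 stretch chr17:51260538-51260567 (base 5), both on the plus strand.

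The windows of NCL, POLR1C, DDX10, NIP7 and NOB1 held no CACGTG. For NCL and NIP7, whose results are described below, the 250 bases before the start are shown with the CCAAT words, in either orientation, in capitals.
NCL: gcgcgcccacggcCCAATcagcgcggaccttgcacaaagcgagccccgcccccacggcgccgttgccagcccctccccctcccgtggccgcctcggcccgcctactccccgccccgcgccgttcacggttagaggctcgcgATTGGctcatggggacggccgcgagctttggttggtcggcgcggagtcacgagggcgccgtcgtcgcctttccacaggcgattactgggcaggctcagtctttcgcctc
NIP7: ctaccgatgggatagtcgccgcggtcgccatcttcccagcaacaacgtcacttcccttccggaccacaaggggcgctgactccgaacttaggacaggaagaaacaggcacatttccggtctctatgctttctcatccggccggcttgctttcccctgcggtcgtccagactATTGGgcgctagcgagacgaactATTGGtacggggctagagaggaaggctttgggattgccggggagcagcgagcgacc
The NCL stretch is chr2:231464485-231464734 on the minus strand and the NIP7 stretch chr16:69339522-69339771 on the plus strand. BOP1, TCOF1, RRS1, NOP58, NOLC1, POLR1E and RRP12 are named without a window.

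Of the 45 members, 38 passed the filter on low counts and were tested among 6738 genes. Their mean levels ran from 26.0 to 879.5 CPM, with a median of 81.6 CPM, and their coefficient of variation over the 16 controls from 12.1% in FBL to 84.1% in RRP9, with a median of 41.0%. The 7 members left untested were POLR1A, POLR1B, RRN3, GNL3, TSR1, BOP1 and RRS1. They held 33 to 162 counts over all 24 libraries, and each was at 0 in 1 to 11 libraries. Levels are not divided by transcript length, since 3′ reads count transcript ends, and mean CPM served only to choose which members to give in full. How strand was used in counting is not stated in the labels. In the GENCODE v29 annotation, exons of 17 members overlap a gene on the other strand (POLR1C with YIPF3 and XPO5, NIP7 with COG8, NOB1 with AC092115.3), and 5 share exons with a gene on the same strand (PPAN with PPAN-P2RY11), so those values are uncertain. A further source of uncertainty is that 9 members have named pseudogenes, NPM1 45 of them, NIP7 3, and NCL and DDX10 2 each.

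Most of the tested ribosome biogenesis genes had negative estimates in the knockdown libraries, and few of them passed the test. In the mean effect, the average of the log2 fold changes of both GATA1 siRNAs, 35 of the 38 tested members had a negative estimate (92.1%), against 50.3% of all tested genes. The members' median was -0.33 and that of all tested genes -0.0029 on the log2 scale. By the quasi-likelihood test of edgeR, with Benjamini-Hochberg adjustment over all tested genes, 5 members fell: NCL, TCOF1, POLR1C, NOB1 and DDX10. That is 5 of 38, where 1.88% of all tested genes were called lower. No member was called higher, against 2.6% of tested genes, and none of the 38 was higher at an unadjusted p under 0.05, where 8.24% of tested genes were. At that unadjusted threshold 14 members were lower, where 8.4% of all tested genes were. The number called lower ranged from 1 to 8 when 1 library was left out and was 0 with siNC-1 as the sole control, while the sign of the median held in every alternative run. The members with positive estimates were UTP14A (0.42, SE 0.44), UBTF (0.26, SE 0.20) and PES1 (0.11, SE 0.25), none past the test.

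**Figure D1:**
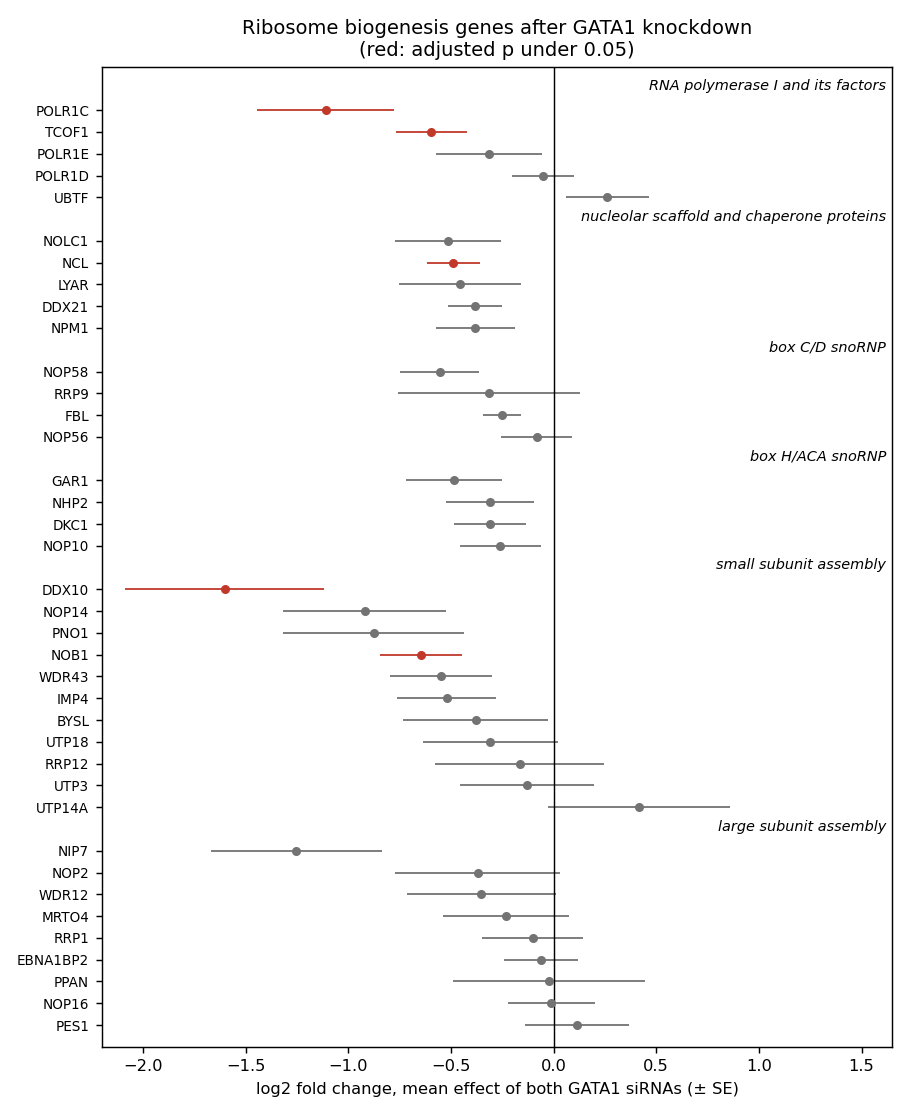
Log2 fold change in the mean effect of both GATA1 siRNAs (x axis, with SE) for the 38 tested members, grouped by role. Red points, the 5 members past an adjusted p of 0.05, all lie left of 0, and 35 of 38 points are negative.

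The summed level of all 45 members pointed the same way. With siGATA1-2 the sums were 3564 to 3689 CPM, below the 4301 to 5498 CPM of the 8 controls at 6.25 nM, and their mean was 74.6% of the control mean. With siGATA1-1 they were 3963 to 4734 CPM against 4734 to 5880 CPM at 25 nM, and their mean was 86.5% of the control mean. The highest siGATA1-1 library lay just above the lowest control at 25 nM, by less than 1 CPM, so these groups overlapped. FBL, the member with the most counts, weighs heavily in such a sum, and a sum without FBL was not made. Without NCL and NPM1 the sums were 88.6% of the control mean with siGATA1-1 and 74.8% with siGATA1-2. As a share of all deposited counts, without further scaling, the members made up 0.378% to 0.436% with siGATA1-1 against 0.441% to 0.514% in its controls. The share was 0.334% to 0.346% with siGATA1-2 against 0.407% to 0.508%.

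**Figure D2:**
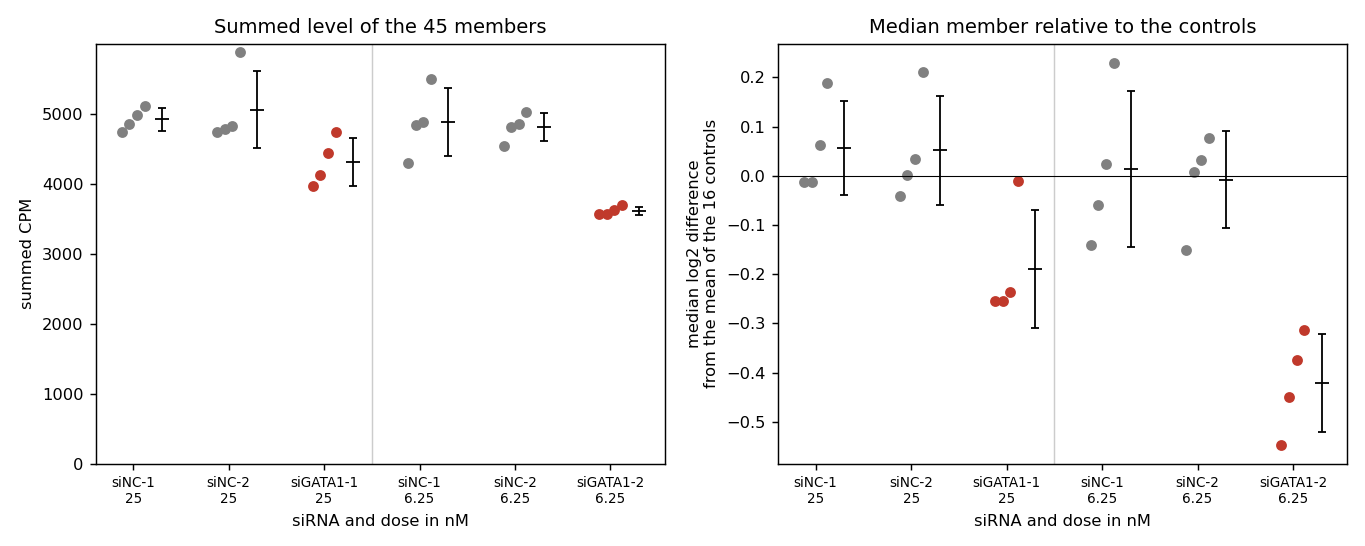
Summed CPM of the 45 members in each library (left) and the median over the tested members of the log2 difference from the mean of the 16 controls (right), by siRNA and dose in nM, with mean ± SD of the 4 libraries of a group in black. The 4 siGATA1-2 libraries lie at 3564 to 3689 CPM, below every control, and at -0.55 to -0.31 in the right panel.

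The siRNAs were then taken apart. With siGATA1-1, 1 member fell, TCOF1, where 0.341% of tested genes were called lower, and none was called higher, where 0.386% were. The members' median was -0.24 against 0.0056 over all tested genes, and 31 of 38 estimates were negative, where 49.3% of all tested genes were. Without siGATA1-1 replicate 4 the median was -0.13. At an unadjusted p under 0.05, 6 members were lower (2.86% of tested genes) and none higher (3.52%). With siGATA1-2, 3 members fell, NIP7, DDX21 and POLR1C, where 1.28% of tested genes were called lower, and none was called higher, where 1.75% were. The members' median was -0.48 against -0.014 over all tested genes, and 33 estimates were negative, where 50.9% of all tested genes were. At an unadjusted p under 0.05, 13 members were lower (7.78% of tested genes) and 1, UBTF, was higher (8.04%). No member was called with both siRNAs. The number of members called lower with siGATA1-2 became 0 without its replicate 3 and 1 without its replicate 1 or 4. Without replicate 4 none of NIP7, DDX21 and POLR1C stayed called, so the 1 call there was of another member. The comparisons used different control libraries, and 27 members had a negative estimate with both siRNAs, 1 a positive one with both (PES1) and 10 opposite signs. The share of all tested genes with a negative estimate for both was not counted.

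**Figure D3:**
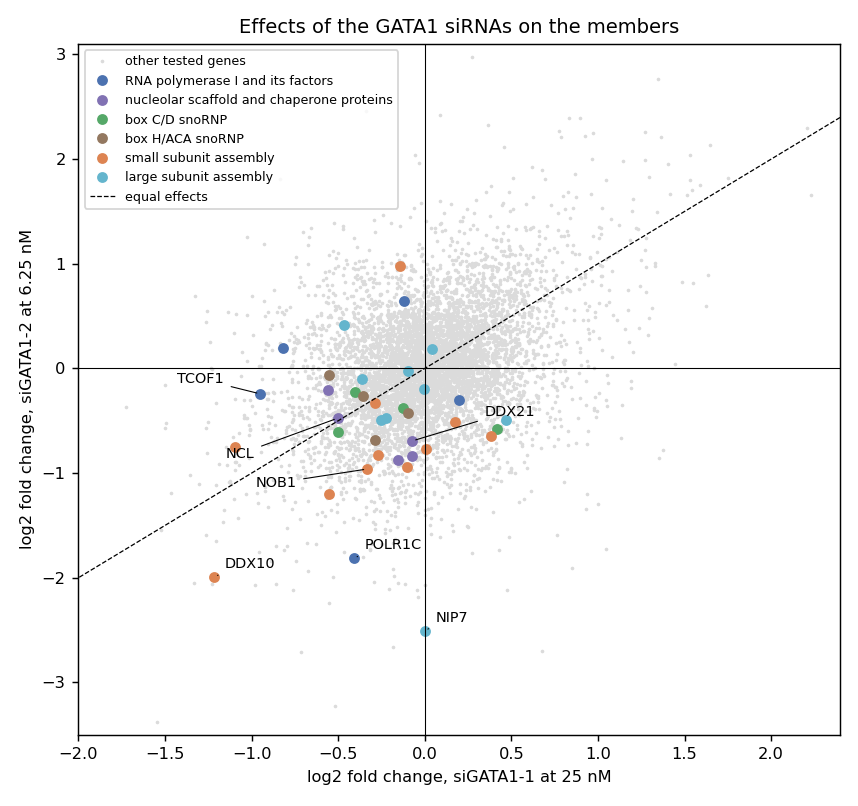
Log2 fold change with siGATA1-1 at 25 nM (x axis) against that with siGATA1-2 at 6.25 nM (y axis) for the tested members, coloured by role, over all 6738 tested genes in grey. Of the 38 members, 27 are negative on both axes, and NIP7, at -2.50 with siGATA1-2, lies on the vertical zero line.

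Whether the siRNAs differed was tested directly as the difference of their effects. No member and no other gene was called (0% of tested genes), by edgeR, and DESeq2 and limma voom likewise called no member. At an unadjusted p under 0.05, 5 members were more negative with siGATA1-2 (NIP7, NOP56, DDX21, NOP16 and POLR1C), where 2.73% of tested genes were, and 1 with siGATA1-1 (TCOF1), where 2.21% were. The difference was -2.50 for NIP7 (95% interval -4.15 to -0.86), -0.997 for NOP56 (-1.68 to -0.31) and 0.71 for TCOF1 (0.022 to 1.39). The estimate was more negative with siGATA1-2 in 24 of 38 members (63.2%), where it was so in 50.6% of all tested genes.

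Members that act at the RNA polymerase I step had 5 of 8 genes tested, with a median of -0.31 in the mean effect and 2 called lower. TCOF1 encodes treacle, a nucleolar protein that recruits RNA polymerase I and is mutated in Treacher Collins syndrome. With siGATA1-1 it measured 91.0, 101, 106 and 151 CPM, while the 8 controls at 25 nM ran from 152 to 285 CPM with a median of 228 CPM. All 4 knockdown libraries lay below all 8 controls, although the nearest pair differed by about 1 CPM. The log2 fold change was -0.95 (SE 0.24, edgeR adjusted p = 0.0248), a fall of 48.2%, and the exact two-sided permutation test over libraries gave p = 0.00202, the smallest it can give with 4 against 8. With siGATA1-2 TCOF1 measured 72.9, 119, 189 and 241 CPM against 122 to 274 CPM in its controls. Those groups overlapped, the estimate was -0.24 (SE 0.25, adjusted p = 0.695), and the exact permutation p was 0.234. In the mean effect TCOF1 fell by 0.60 on the log2 scale (SE 0.17, edgeR adjusted p = 0.0268). Leaving out 1 library at a time kept the siGATA1-1 call in 18 of 24 fits, with adjusted p from 0.013 to 0.22. It was lost without siGATA1-1 replicates 1, 3 or 4, siNC-1 replicate 1 at 25 nM, or siNC-2 replicates 3 or 4 at 25 nM, and against either control siRNA alone. The mean-effect call stayed in 17 of 24 fits (adjusted p up to 0.0834) and was lost without siGATA1-1 replicates 1 or 4, siGATA1-2 replicates 3 or 4, siNC-1 replicates 1 or 5, or siNC-2 replicate 6, against either control siRNA alone, and without the 2 libraries under 120000 counts.

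POLR1C encodes a subunit that RNA polymerases I and III share. With siGATA1-2 it was at 0 in 2 libraries and measured 22.7 and 43.6 CPM in the other pair, on 0 to 9 counts a library. The siNC-1 libraries at 6.25 nM measured 26.8, 36.3, 46.8 and 64.4 CPM and the siNC-2 libraries 78.9, 87.9, 102 and 127 CPM. The knockdown libraries lay below all siNC-2 libraries and overlapped with siNC-1. POLR1C fell by 1.81 on the log2 scale with siGATA1-2 (SE 0.52, edgeR adjusted p = 0.032, exact permutation p = 0.00808). With siGATA1-1 it measured 35.4 to 53.2 CPM against 22.3 to 104 CPM in its controls, an estimate of -0.41 (SE 0.41, adjusted p = 0.973). Its mean effect was -1.11 (SE 0.33, edgeR adjusted p = 0.0355). Between the control siRNAs at 6.25 nM the log2 difference of siNC-1 minus siNC-2 was -1.15 (SE 0.48, unadjusted p = 0.0179, edgeR adjusted p = 0.999). With siNC-1 as the sole control neither call remained. The siGATA1-2 call stayed in 20 of 24 fits (adjusted p 0.00317 to 0.197) and was lost without siGATA1-2 replicates 1, 3 or 4 or siNC-1 replicate 7, and also when only the groups compared were fitted. Without siGATA1-2 replicate 2 the estimates became -2.93 with siGATA1-2 and -1.67 in the mean effect. At the other end, leaving out 1 library brought them to -1.33 with siGATA1-2 and -0.87 in the mean effect. Both calls were lost with no filter on low counts and without the 2 libraries under 120000 counts. The mean-effect call stayed in 14 of 24 (adjusted p up to 0.145) and was lost without siGATA1-1 replicates 1, 3 or 4, siGATA1-2 replicates 1 or 3, siNC-1 replicates 3 or 7, or siNC-2 replicates 1, 4 or 7.

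POLR1D, the partner of POLR1C in that shared module, had the most counts of this role and no detected change. It measured 156, 190.3, 249 and 342 CPM with siGATA1-1 against 160.1 to 243 CPM, and 136, 198, 250.1 and 313 CPM with siGATA1-2 against 193 to 413 CPM. All groups overlapped, and the mean effect was -0.05 (95% interval -0.35 to 0.25). POLR1E, another polymerase subunit, had opposite estimates with the siRNAs, -0.82 (SE 0.35) with siGATA1-1 and 0.19 (SE 0.38) with siGATA1-2. UBTF, which binds the ribosomal DNA and keeps it open for transcription, had -0.12 (SE 0.28) and 0.64 (SE 0.29).

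Of the nucleolar scaffold and chaperone genes, 5 of 6 were tested, all with negative estimates and a median of -0.46. NCL encodes nucleolin, an abundant RNA-binding protein of the nucleolus. With siGATA1-1 it measured 229.9, 255, 256 and 268 CPM, against 291 to 416 CPM and a median of 363 CPM in the 8 controls. With siGATA1-2 it measured 135, 208, 284 and 306 CPM, against 252 to 388 CPM and a median of 343 CPM. The groups were apart at 25 nM, while at 6.25 nM 2 knockdown libraries lay inside the control range. The log2 fold changes were -0.50 (SE 0.18, edgeR adjusted p = 0.303) and -0.48 (SE 0.19, adjusted p = 0.181), with exact permutation p of 0.00202 and 0.0162. Neither passed on its own. The mean effect was -0.49 (SE 0.13, edgeR adjusted p = 0.0108), a fall of 28.7%. That call was kept in all 24 fits that left out 1 library, with adjusted p from 0.00555 to 0.0405, and was lost with siNC-1 as the sole control.

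DDX21 encodes an RNA helicase that acts on both RNA polymerase I transcription and rRNA processing. With siGATA1-2 it measured 185, 193, 198 and 281 CPM, all below the 284 to 510.0 CPM of its 8 controls, although the highest knockdown library came within 4 CPM of the lowest control. It fell by 0.69 on the log2 scale (SE 0.19, edgeR adjusted p = 0.0261, exact permutation p = 0.00202). With siGATA1-1 DDX21 measured 228, 305, 363 and 383 CPM against 285 to 358 CPM, with the knockdown libraries on both sides of the controls. The estimate was -0.07 (95% interval -0.42 to 0.27), and the mean effect of -0.38 (SE 0.13) missed the threshold (adjusted p = 0.0751). The siGATA1-2 call stayed in 20 of 24 fits (adjusted p 0.00871 to 0.125) and was lost without siGATA1-2 replicates 1, 3 or 4 or siNC-1 replicate 5, with limma voom, with no filter on low counts, with siNC-2 as the sole control, with only the groups compared in the fit, and without the 2 libraries under 120000 counts. NPM1, the nucleophosmin chaperone, had -0.38 (SE 0.19) in the mean effect. NOLC1, a scaffold of the nucleolus and Cajal body, had -0.51 (SE 0.26), and LYAR, a nucleolar growth regulator, -0.46 (SE 0.30), none past the test.

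Of the core proteins of the small nucleolar particles, none of the 8 was called with either siRNA or in the mean effect, although all 8 mean estimates were negative. In the box C/D group, with a median of -0.28, FBL encodes fibrillarin, the methyltransferase. FBL measured 749, 848, 941 and 996 CPM with siGATA1-1 against 849 to 1204 CPM, and 584, 653, 681 and 834 CPM with siGATA1-2 against 729 to 1008 CPM. The groups overlapped at both doses. Its mean effect was -0.25 (SE 0.09, edgeR adjusted p = 0.108), a fitted difference of -15.9%. NOP58, one of the scaffold proteins of the particle, measured 93.9, 95.1, 95.2 and 200.4 CPM with siGATA1-1 against 119 to 259 CPM. Of these, 3 libraries lay below every control, and 1 lay inside the control range, above the control median of 150.4 CPM. With siGATA1-2 NOP58 measured 69.5, 90.8, 115 and 131 CPM against 85.9 to 204 CPM, and the mean effect was -0.56 (SE 0.19, edgeR adjusted p = 0.0811). Leaving out siGATA1-1 replicate 3 or siGATA1-2 replicate 2 brought NOP58 past the threshold, with an adjusted p down to 0.0248. NOP56, the other scaffold, had 0.42 (SE 0.22) with siGATA1-1 and -0.58 (SE 0.26) with siGATA1-2, and RRP9, a protein of the U3 particle, had a mean effect of -0.32 (SE 0.44).

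In the box H/ACA group, whose mean effects had a median of -0.31, DKC1 encodes dyskerin, the pseudouridine synthase. DKC1 measured 70.7, 101, 111 and 134 CPM with siGATA1-1 against 117 to 212 CPM, and 88.0, 142, 189 and 302 CPM with siGATA1-2 against 137 to 205 CPM. With siGATA1-1, 3 of 4 libraries lay below all controls, and with siGATA1-2 the libraries lay on both sides of them. The estimates were -0.55 (SE 0.25, edgeR adjusted p = 0.635) and -0.06 (SE 0.25, adjusted p = 0.936). GAR1, a structural partner of dyskerin, measured 35.7, 64.8, 88.2 and 92.4 CPM with siGATA1-1 against 38.9 to 146 CPM. With siGATA1-2 it measured 60.2, 62.5, 72.6 and 90.8 CPM against 30.2 to 169 CPM, within the range of the controls. The mean effect of GAR1 was -0.49 (SE 0.23, edgeR adjusted p = 0.267). NHP2 and NOP10, the remaining core proteins, had mean effects of -0.31 (SE 0.21) and -0.26 (SE 0.20).

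The small subunit assembly genes had a median of -0.52 in the mean effect, the most negative of the 6 roles there, with 11 of 12 tested, 10 negative and 2 called lower. With siGATA1-2 their median was -0.77, while with siGATA1-1 it was -0.27, less negative than that of the RNA polymerase I genes (-0.41) and of the box H/ACA genes (-0.32). The differences between roles were not tested. NOB1 encodes the endonuclease that makes the last cut of the small subunit RNA. With siGATA1-2 it measured 46.3, 68.1, 77.4 and 83.4 CPM, all below the 103 to 166 CPM of its controls. With siGATA1-1 it measured 81.2, 94.3, 108 and 125 CPM against 95.8 to 173 CPM, and those groups overlapped. The log2 fold changes were -0.96 (SE 0.31, edgeR adjusted p = 0.061, exact permutation p = 0.00202) and -0.33 (SE 0.26, adjusted p = 0.966, exact permutation p = 0.0808). In the mean effect NOB1 fell by 0.65 (SE 0.20, edgeR adjusted p = 0.0424). This call was close to the threshold. It stayed in 9 of 24 fits that left out 1 library (adjusted p 0.0347 to 0.135), and was lost against either control siRNA alone and with no filter on low counts. It was lost without any 1 library of siGATA1-1, without siGATA1-2 replicates 1 or 4, without siNC-1 replicates 1, 3, 4, 5 or 7, and without siNC-2 replicates 3, 4, 7 or 8.

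DDX10 encodes a helicase of the small subunit processome. It measured 8.54, 8.92, 11.8 and 28.0 CPM with siGATA1-1 against 0 to 46.5 CPM (median 37.4) in the controls, and 0, 5.68, 9.26 and 14.5 CPM with siGATA1-2 against 0 to 69.8 CPM (median 29.0). The knockdown libraries were low at both doses, but 1 control library at each dose was at 0, so the groups overlapped. Counts were few, 2 to 10 with siGATA1-1 and 0 to 3 with siGATA1-2. DDX10 fell by 1.60 on the log2 scale in the mean effect (SE 0.48, edgeR adjusted p = 0.0355). The single siRNAs gave -1.22 (SE 0.61, adjusted p = 0.775, exact permutation p = 0.16) and -1.99 (SE 0.75, adjusted p = 0.146, exact permutation p = 0.0444). The mean-effect call stayed in 13 of the 23 fits that kept DDX10 (adjusted p 0.0141 to 0.0873). It was lost without siGATA1-1 replicates 1, 3 or 4, siGATA1-2 replicates 1, 3 or 4, siNC-1 replicates 2 or 7, or siNC-2 replicates 4 or 7, with limma voom, and against either control siRNA alone.

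Of the other small subunit members, NOP14 (-0.92, SE 0.40), PNO1 (-0.88, SE 0.44), WDR43 (-0.55, SE 0.25) and IMP4 (-0.52, SE 0.24) had an unadjusted p under 0.05 in the mean effect and adjusted p of 0.2 to 0.295. NOP14, WDR43 and IMP4 belong to the processome, and PNO1 works with NOB1 on the late small subunit precursor. IMP4 measured 20.8 to 51.1 CPM with siGATA1-2 against 46.8 to 127 CPM, with a small overlap. BYSL, UTP18, RRP12 and UTP3 had mean effects of -0.38, -0.31, -0.17 and -0.13, each with an SE over 0.3.

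The large subunit assembly genes had a median of -0.10, with 9 of 11 tested, 8 negative and none called in the mean effect. NIP7, a factor of large subunit precursors and of rRNA processing, gave the most negative estimate of any member with a single siRNA. With siGATA1-2 it was at 0 in 2 libraries and measured 13.9 and 14.5 CPM in the rest, on at most 3 counts a library. The 8 controls measured 18.1 to 104 CPM with a median of 42.2 CPM, on 3 to 23 counts. All knockdown libraries lay below all controls. NIP7 fell by 2.50 on the log2 scale (SE 0.67, edgeR adjusted p = 0.0162, exact permutation p = 0.00202), an estimate that rests on few counts. With siGATA1-1 NIP7 measured 23.6, 34.1, 38.7 and 50.4 CPM against 0 to 59.0 CPM, inside the control range, and the estimate was -0.00086 (95% interval -0.70 to 0.70). The mean effect was -1.25 (SE 0.42, edgeR adjusted p = 0.065). The siGATA1-2 call stayed in 21 of 24 fits (adjusted p 0.00926 to 0.11), and was lost without siGATA1-2 replicates 3 or 4 or siNC-1 replicate 8, and with siNC-1 as the sole control. When only the groups compared were fitted, NIP7 did not pass the filter and was not tested.

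**Figure D4:**
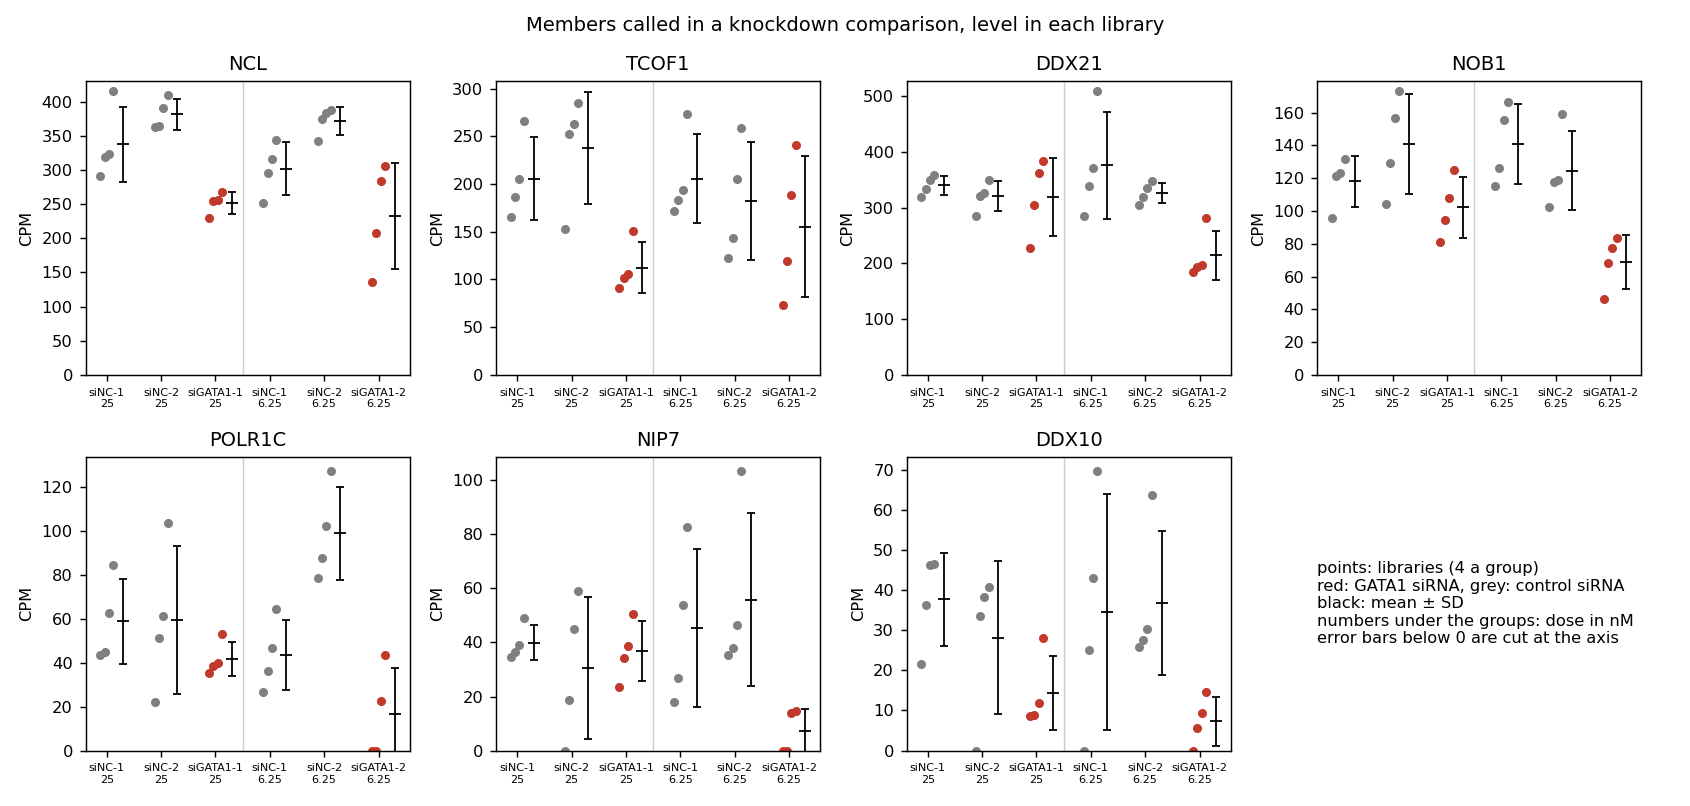
Level in CPM of the 7 members called in at least 1 knockdown comparison, in each of the 24 libraries by siRNA and dose in nM, with GATA1 siRNAs in red and mean ± SD in black. NIP7, DDX21 and NOB1 lie below all controls of the same dose with siGATA1-2, TCOF1 and NCL with siGATA1-1, while POLR1C and DDX10 overlap with controls at both doses.

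EBNA1BP2, which joins early large subunit precursors, had the most counts of this role and gave no detected change. It measured 98.0, 122, 169 and 171 CPM with siGATA1-1 against 134 to 194 CPM, and 111, 114, 167 and 185 CPM with siGATA1-2 against 79.2 to 199 CPM. The groups overlapped at both doses, and the mean effect was -0.06 (95% interval -0.42 to 0.30). Of the PeBoW complex, PES1 had 0.11 (SE 0.25) and WDR12 -0.35 (SE 0.36), and BOP1 was not tested. NOP2, an rRNA methyltransferase, had -0.37 (SE 0.40), MRTO4, which holds the place of the ribosomal stalk, -0.23 (SE 0.31), and RRP1 -0.10 (SE 0.25). PPAN and NOP16 had -0.02 (SE 0.47) and -0.01 (SE 0.21). For NOP16 the siRNAs gave 0.47 (SE 0.28) with siGATA1-1 and -0.49 (SE 0.31) with siGATA1-2.

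Counting members whose 4 knockdown libraries all lay below all 8 controls gave TCOF1 and NCL with siGATA1-1, 2 of 38 where 0.92% of tested genes did so, and DDX21, NOB1 and NIP7 with siGATA1-2, 3 of 38 where 0.994% did. No member did so with both siRNAs. Comparisons among controls gave a background for siRNAs with no GATA1 target. At each dose, siNC-1 and siNC-2 were compared as 4 against 4 libraries, fewer than in any knockdown comparison. Such a comparison can detect less, so its number of calls is not a like-for-like background for the knockdown calls. Between siNC-1 and siNC-2, edgeR called no member and no other gene at either dose (0%), and DESeq2 and limma voom called no member either. At an unadjusted p under 0.05 there were 0 of 38 members at 25 nM, where 1.28% of tested genes were, and 5 of 38 at 6.25 nM, where 3.01% were. The member furthest apart was BYSL at 6.25 nM, with a log2 difference of siNC-1 minus siNC-2 of -2.40 (SE 0.58, unadjusted p = 6.5e-05, adjusted p = 0.437), chosen for mention after its value was seen. Between doses in the controls, 1 member was called, where 1.41% of tested genes were. It was NHP2, higher at 25 nM by 0.86 (SE 0.24, edgeR adjusted p = 0.0336), and it too was chosen after its value was seen. The members' medians in these comparisons were 0.064 and -0.097 between control siRNAs and 0.057 between doses.

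A wider list of 131 other ribosome biogenesis genes, of which 106 were tested, had estimates of the same sign and of smaller size. Their median mean effect was -0.21, and 82 of 106 estimates were negative (77.4%, against 50.3% of all tested genes). By edgeR none was called, where 1.88% of all tested genes were called lower and 2.6% higher. At an unadjusted p under 0.05, 16 were lower and 1 higher, where 8.4% and 8.24% of all tested genes were. DESeq2 and limma voom each called 1. The smallest p belonged to NMD3, the export adapter of the large subunit, with -1.36 (SE 0.46, edgeR adjusted p = 0.071). By role the medians were -0.25 for 44 large subunit genes, -0.14 for 36 small subunit genes, -0.30 for 6 RNA polymerase I genes, -0.20 for 7 small nucleolar particle genes and -0.015 for 13 genes of the nuclear exosome, which trims rRNA ends. The difference between the members and this list was not tested.

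**Figure D5:**
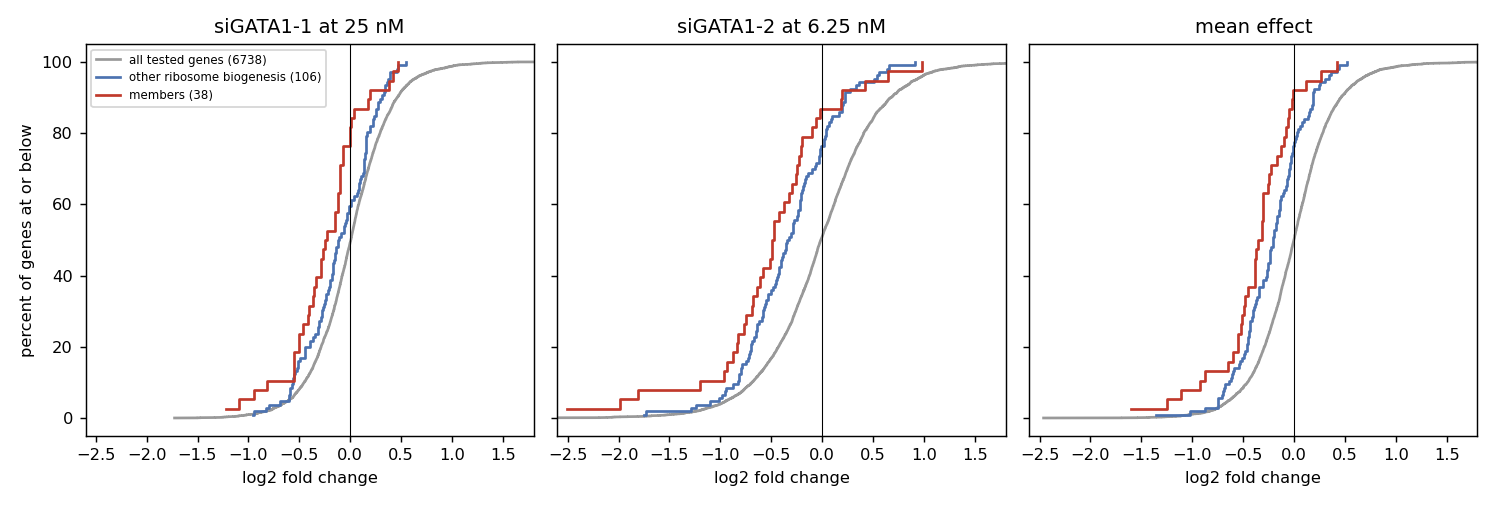
Percent of genes (y axis) with a log2 fold change at or below the value on the x axis, for the 38 tested members (red), 106 other ribosome biogenesis genes (blue) and all 6738 tested genes (grey). In the mean effect the members' curve crosses 50% near -0.33 and the grey curve near 0.

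MYC, whose product binds the E-box, measured 106, 143, 182 and 193 CPM with siGATA1-1 against 189.5 to 397 CPM, and 92.6, 135, 165 and 281 CPM with siGATA1-2 against 127 to 381 CPM. It fell in the mean effect by 0.72 (SE 0.16, edgeR adjusted p = 0.00191). Whether the fall of MYC has a part in the members' levels was not tested. Members with and without an E-box in the window were set side by side, and their difference was not tested. The 17 tested members with one had a median mean effect of -0.37, with 15 negative and none called. The 16 without had a median of -0.31, with 15 negative and 4 called (NCL, POLR1C, NOB1 and DDX10). With siGATA1-1 the order was the other way, with medians of -0.15 with an E-box and -0.28 without, and 0 called in both sets. With siGATA1-2 the medians were -0.49 and -0.48, with 1 called with an E-box (DDX21) and 2 without (NIP7 and POLR1C). Tested members without a window, among them TCOF1, are in neither set.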

How the data were processed

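The authors deposited 1 table of raw counts per gene symbol for 24 libraries, made with version 2 of BRB-seq, a pooled 3′ RNA-seq method, per the labels' protocols. Reads were aligned with STAR 2.5.6b to hg19, per the submitters' processing notes. No source used here names the annotation, the counting program, strand use or the treatment of molecular identifiers. Libraries were grouped by siRNA and dose as labelled, 4 a group. The design text calls them biological replicates, and whether they came from separate cultures is not given, so p-values measure the spread between libraries, which may be technical. Replicate columns were never identical, and over 36 pairs within groups the chi-square of the counts was 1.83 to 3.35 per degree of freedom, above the value of 1 that sampling noise alone gives.

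A single model with 1 mean per group covered the 24 libraries, using edgeR 4.0.16 (R 4.3.3) with TMM scaling, filterByExpr at minimum count 10 and minimum total 15, and the robust quasi-likelihood F test. This left 6738 genes with 93.7% of the counts, with a biological coefficient of variation of 0.263. Calls were made where the p-value, adjusted by Benjamini-Hochberg over all tested genes, was under 0.05. Comparisons were each GATA1 siRNA against the mean of both control siRNAs at its dose, the mean and the difference of these effects, and comparisons among controls. The SE of a log2 fold change was taken from its F statistic. The members called in a knockdown comparison also got an exact two-sided permutation test over libraries on log2 CPM (prior count 2), 14 tests in all, not adjusted. They were chosen by their calls in these same libraries, so the permutation p-values are not separate support for the calls. Values in full were given for members called in a knockdown comparison and, in each role, for the tested member with the highest mean CPM and that with the smallest p in the mean effect. The other members appear with estimates, ranges or counts. The members and gene lists were chosen with earlier results of these data known. Alternatives used DESeq2 1.42.0 and limma voom (limma 3.58.1), other filters, other controls and left-out libraries. The procedure was tested on simulated counts first. Depth limits precision: 3 counts correspond to 6.51 to 38.9 CPM, depending on the library, which covers counting error only.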

Additional observations from a re-analysis of the deposited data

Results flagged for a closer look

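Of 78 groups of 4 libraries checked over the 13 members given in full, 6 held a library far from the other 3 of its group, where chance gives about 1 in 20. With siGATA1-1, replicate 3 had 200.4 CPM of NOP58, with the next at 95.2 CPM, and replicate 2 had 28.0 CPM of DDX10, with the next at 11.8 CPM. With siGATA1-2, replicate 2 had 281 CPM of DDX21, with the next at 198 CPM. In the controls at 6.25 nM, siNC-1 replicate 5 had 413 CPM of POLR1D, with the next at 278 CPM, and siNC-2 replicate 7 was the highest of its group for both DDX10 (63.7 CPM, next 30.4 CPM) and NIP7 (104 CPM, next 46.5 CPM).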

How the results depend on the processing

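The direction of the members' medians did not depend on any alternative run. The median ranged from -0.40 to -0.29 in the mean effect, from -0.29 to -0.13 with siGATA1-1 and from -0.58 to -0.42 with siGATA1-2 over the fits that left out 1 library. The number of members called did depend on it. In the mean effect, 5 members were called lower. This became 3 with no filter on low counts, 0 with siNC-1 as the sole control, 2 with siNC-2 as the sole control, and 3 without the 2 libraries under 120000 counts (an alternative chosen after seeing the data). It was 1 to 8 when 1 library was left out, with 8 without siGATA1-2 replicate 2, and 1 without siGATA1-1 replicates 1 or 4. It was 2 without siGATA1-2 replicate 3, siNC-1 replicates 3 or 7, or siNC-2 replicates 4 or 7. It was 3 without siGATA1-1 replicate 3, siGATA1-2 replicates 1 or 4, or siNC-1 replicates 1 or 5 (replicates 1 to 4 of a control siRNA are at 25 nM, 5 to 8 at 6.25 nM). With siGATA1-1 the single call became 0 with either control siRNA alone, and 0 to 1 with 1 library left out. With siGATA1-2 the number of members called, 3, became 1 with no filter, 1 with siNC-1 alone, 5 against all 16 controls, and 0 when only the groups compared were fitted. That number was 0 to 3 with 1 library left out, with 0 without siGATA1-2 replicate 3 and 1 without its replicates 1 or 4. These are counts, and the members called were not always the same. Of the other ribosome biogenesis genes 0 were called, which became 1 with DESeq2, 1 with limma voom, 1 without those 2 libraries and 0 to 2 with 1 library left out. Some of these fits had fewer controls or libraries, and the cause of the changes was not tested.

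Whether replicate numbers pair the libraries was checked at 25 nM only. Over 12 pairs with the same number, deviations from the group means correlated at -0.087 to 0.258 (median -0.0039), 2 of them over 0.1. Over 36 pairs with different numbers the correlations were -0.248 to 0.255 (median -0.0052), 2 of them over 0.1. The check cannot settle whether the libraries were partly paired. With the replicate block on the 12 libraries at 25 nM, 1 member was called lower with siGATA1-1 and the median was -0.27, against 1 and -0.25 in the same libraries without the block. No block could be fitted for siGATA1-2, whose libraries and controls share no numbers. At 0 to 3 counts a library, changes in NIP7 and DDX10 are measured with large error, and the 7 untested members could not be assessed at this depth.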
